A study of Mus musculus with 2 samples.

Results

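Immune cells make, release, sense and answer transforming growth factor beta (TGF-beta) through the 8 genes followed here, of 31253 genes counted in the series. They were chosen by name and not by a threshold on their values, and are the ligand Tgfb1, its activators Itgb8 and Lrrc32, the receptors Tgfbr1 and Tgfbr2, the inhibitors Smad7 and Ski, and the responsive gene Tgfbi. Each was followed as a level and as a share of positive cells over immune classes gated on marker genes.

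The study profiled single immune cells from mouse gliomas with the BD Rhapsody system, which captures cells with barcoded beads in microwells. Cells had been sorted as living, positive for CD45.2 and negative for CD45.1, which selects the host's own leukocytes where transferred cells carry CD45.1. There were 2 libraries, 1 from tumour treated with PBS (phosphate-buffered saline) and 1 from tumour treated with EM, whose title gives 72 h. The labels used here do not expand EM, and give no strain, age, glioma line or number of animals per library, so with 1 library per group there is no replicate check, no p-value is given, and a difference between treatments cannot be told apart from a difference between these libraries.

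TGF-beta is made as a latent complex, in which the growth factor is held by its own propeptide until it is freed. Integrin alpha-v beta-8 frees it, and GARP, the product of Lrrc32, tethers the latent complex to the surface of regulatory T cells and platelets. The free ligand binds the type II receptor, which recruits and activates the type I receptor. That receptor phosphorylates SMAD2 and SMAD3, and SMAD7 and SKI restrain the response. In brain and tumour, TGF-beta maintains microglia, supports regulatory T cells and restrains cytotoxic lymphocytes.

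After filtering, 7756 PBS cells and 7967 EM cells remained, with medians of 4303 and 2016 unique molecular identifiers (UMIs, counted molecules). The gates held 3987 PBS and 4962 EM T cells, 223 and 508 NK cells, 137 and 207 microglia, 1473 and 539 monocytes or macrophages, 65 and 193 dendritic cells, and 50 and 86 B cells. Neutrophils (526 cells) passed 50 cells in PBS only, plasmacytoid dendritic cells (173) and basophils or mast cells (160) in EM only, and 1242 PBS cells and 1112 EM cells fell in no gate. Clusters were built without the 8 genes but took their class from the gates. Each got the commonest gate of its cells where at least 50% were gated and at least 70% of those shared it. Of the 12975 gated cells in such clusters, 98.0% had the class of their cluster, a share that is no independent check of the gates. Between the libraries, 66 barcodes were shared. The libraries also differed in Xist (10.6 CPM in PBS and 384 in EM) and Ddx3y (192 and 4.46 CPM), genes of the inactive X and of the Y chromosome. They thus differed in their share of female and male cells. In every ratio of EM to PBS this difference in sex cannot be told apart from the treatment.

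Levels are given as CPM, the UMIs of a gene per 1000000 UMIs of the class, each with an exact 95% interval that covers counting error only. A gene was called higher or lower in EM when the class held at least 20 of its UMIs, the ratio reached 2-fold and its 95% counting interval excluded equality. Of the 48 pairs of 8 genes and 6 classes, 36 held enough UMIs, of which 5 were called higher and 2 lower. Among all genes tested, from 4.20% (NK cells) to 7.30% (B cells) of a class were called higher. From 6.78% (dendritic cells) to 18.7% (microglia) were called lower. The called pairs were Itgb8 and Lrrc32 in T cells, Tgfbi in microglia and in monocytes or macrophages, and Smad7 in dendritic cells, all higher, with Tgfb1 in microglia and Tgfbr1 in dendritic cells lower.

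**Figure D1:**
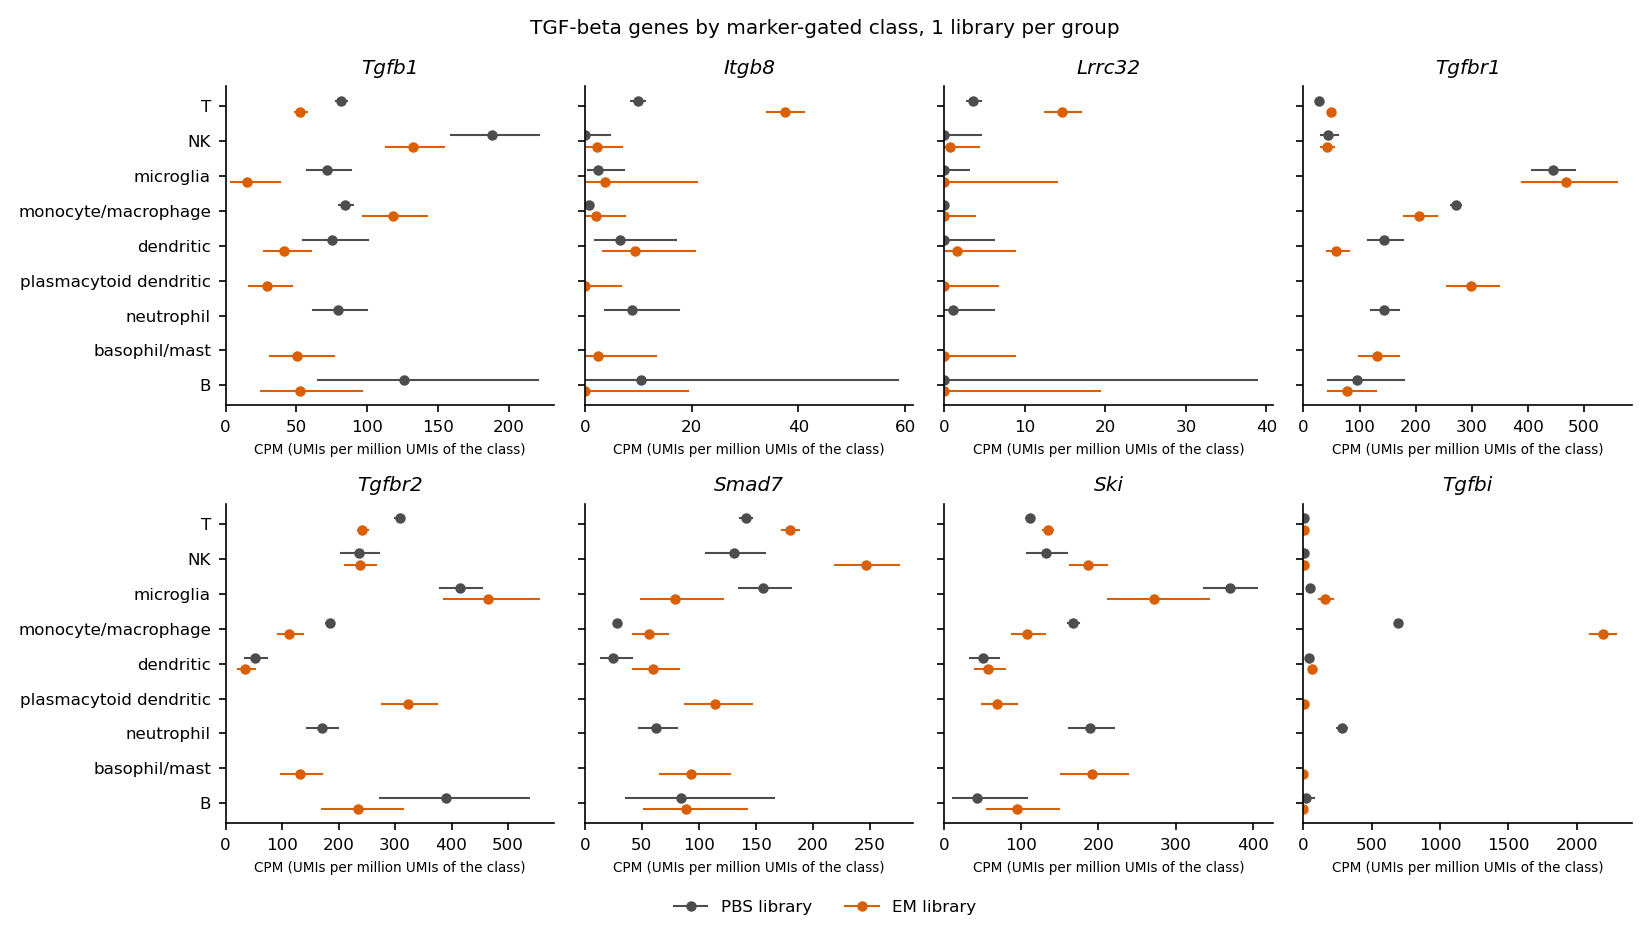
Level of each of the 8 genes (x axis, CPM, linear scale, own scale per gene) in each marker-gated class (y axis), with grey points for the PBS library, orange points for the EM library and lines for 95% counting intervals. Classes under 50 cells in a library have no point. Tgfbi stands out in monocytes or macrophages (688 and 2193 CPM), the receptors Tgfbr1 and Tgfbr2 in microglia, and Itgb8 and Lrrc32 in T cells of the EM library.

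Tgfb1 (chromosome 7, 25687002 to 25705077, GRCm38) encodes the TGF-beta1 ligand and was detected in every class. NK cells had its highest level in both libraries, 188 CPM in PBS (159 to 221, 150 UMIs) and 132 CPM in EM (113 to 154, 169 UMIs). In PBS the other 6 classes stood between 71.5 CPM in microglia and 126 CPM in B cells, and no neighbouring pair in the order of 7 classes differed beyond its counting interval. B cells, next to NK cells, held 12 UMIs. The NK interval lay above those of monocytes or macrophages (79.8 to 89.6 CPM) and T cells (77.7 to 85.5 CPM). In EM monocytes or macrophages followed NK cells at 118 CPM, above T cells at 52.9 CPM beyond the counting interval. The first 2 classes of that order did not differ from each other beyond it.

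T cells of the PBS library had Tgfb1 at 81.5 CPM and those of EM at 52.9 CPM, which gave a log2 ratio of EM to PBS of -0.62 (-0.76 to -0.49), short of the 2-fold rule. It was lower in EM in each of the 4 T cell subsets, with ratios from -0.77 in CD8 T cells to -0.52 in regulatory T cells, where the interval reached equality (-1.03 to 0.00). In monocytes or macrophages it stood at 84.6 and 118 CPM (0.48, 0.19 to 0.76). The sign turned to -0.32 with equal weight per cell and to -0.24 in cells with no marker of another class. Platelet markers summed to 89.8 and 17.9 CPM in this gate, of which Pf4 alone gave 86.2 and 16.9 CPM. The next highest, Treml1, stood at 1.61 and 1.055 CPM. Microglia gave the called difference, 71.5 CPM from 86 UMIs in PBS and 15.1 CPM from 4 UMIs in EM (-2.24, -4.15 to -0.83). Their median depths were 7780 and 902 UMIs. Thinning to 1000 UMIs left out 2 PBS and 120 EM microglia. The ratio was then -1.37 from 12 and 3 UMIs, too few for a call. Glial markers summed to 548 CPM in PBS microglia and 68.1 CPM in EM microglia, and fibroblast markers to 63.2 and 3.78 CPM, and their part in this difference was not tested. Among all genes tested in microglia, 18.7% were called lower and 7.25% higher.

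Itgb8 (chromosome 12, 119158022 to 119238802) encodes the beta-8 integrin chain, which pairs with alpha-v to free the ligand. Its level over all T cells was 9.89 CPM in PBS (8.57 to 11.4, 202 UMIs) and 37.4 CPM in EM (34.1 to 41.0, 450 UMIs), so the intervals did not overlap. This was 3.79-fold higher in EM, a log2 ratio of 1.92 (1.68 to 2.17). Lrrc32 (chromosome 7, 98489283 to 98502181), the tether of latent TGF-beta, stood at 3.62 CPM (2.84 to 4.55, 74 UMIs) and 14.6 CPM (12.6 to 17.0, 176 UMIs), 4.04-fold higher (2.02, 1.61 to 2.43), and its ratio was 2.64 in cells with no marker of another class. The partner chain Itgav ran the other way and was called lower, at 391 and 157 CPM in T cells (-1.31, -1.39 to -1.24). Among all genes tested in T cells 4.80% were called higher and 10.4% lower, and among the 8 genes described here 2 were higher and none lower.

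Both activators were concentrated in regulatory T cells, gated here as T cells with a UMI of Foxp3, the transcription factor that defines them, and none of Cd8a or Cd8b1. In PBS, Itgb8 was at 146 CPM in regulatory T cells and 6.14 CPM in all other T cells, a 23.8-fold difference. In EM the levels were 174 and 17.3 CPM, a 10.1-fold difference. Lrrc32 was at 89.3 against 1.26 CPM in PBS (71.0-fold) and 69.98 against 6.49 CPM in EM (10.8-fold). Regulatory T cells were 1.57% of PBS cells and held 57.0% of the library's Lrrc32 UMIs, and were 7.92% of EM cells and held 55.4%. Their share of Itgb8 UMIs was 32.8% in PBS, where CD8 T cells held 21.3%, and 51.7% in EM.

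Outside T cells, Lrrc32 was not detected in microglia, monocytes or macrophages, B cells and plasmacytoid dendritic cells. The 13638933 UMIs of PBS monocytes or macrophages put the limit that a count of 0 allows at 0.220 CPM (3 UMIs), and the 948224 UMIs of the EM class at 3.16 CPM. Itgb8 was at 0.733 CPM in monocytes or macrophages of PBS and 2.11 CPM in EM, from 10 and 2 UMIs. In the order of classes, T cells of EM were above the next class beyond the counting interval for both genes. In PBS no neighbouring pair was, but neighbours held few UMIs, with 1 of Itgb8 in B cells and 1 of Lrrc32 in neutrophils. PBS T cells had Itgb8 at 9.89 CPM (8.57 to 11.4), above the 0.352 to 1.35 CPM interval of monocytes or macrophages. Their Lrrc32 was at 3.62 CPM (2.84 to 4.55), where that class reached at most 0.271 CPM.

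Within the regulatory T gate neither activator differed between libraries beyond its counting interval. The PBS cells had Itgb8 at 146 CPM (116 to 181) and the EM cells at 174 CPM (154 to 196), a log2 ratio of 0.26 (-0.11 to 0.64). Lrrc32 was at 89.3 CPM (66.0 to 118) and 69.98 CPM (57.4 to 84.5), a ratio of -0.35 (-0.85 to 0.17). Itgav was at 578 and 340 CPM in this gate (-0.76, -0.97 to -0.56), short of 2-fold. Of the 7 genes with enough UMIs in this gate none was called, beside 4.31% of all genes called higher and 5.34% lower, and 6 of the 7 intervals held equality. The exception was Ski at 137 and 178 CPM (0.38, 0.01 to 0.77).

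The number of these cells differed, with 122 of 3987 T cells in PBS and 631 of 4962 in EM. When the PBS levels of the 4 T cell subsets were combined with the EM mix of subsets, Itgb8 came to 27.5 CPM and Lrrc32 to 14.0 CPM, beside 37.4 and 14.6 CPM observed in EM. With EM levels and the PBS mix they came to 12.5 and 4.97 CPM, beside 9.89 and 3.62 CPM observed in PBS. A near match does not mean like levels in each subset. Lrrc32 stood at 89.3 and 69.98 CPM in regulatory T cells, and at 2.55 and 17.2 CPM in CD4 T cells.

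**Figure D2:**
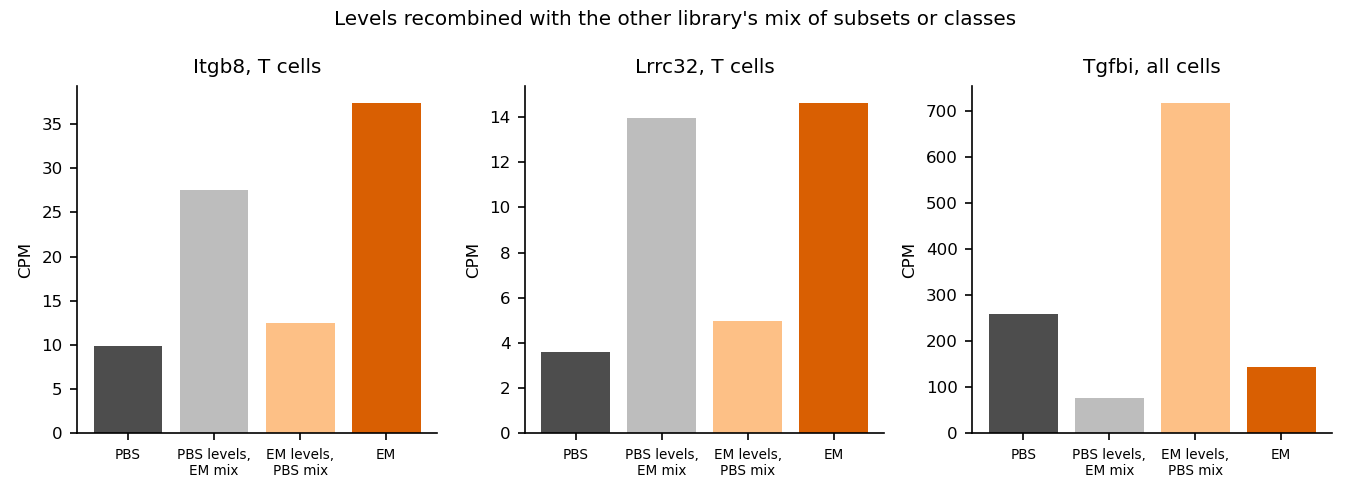
Bars give CPM (y axis, from 0) of Itgb8 and Lrrc32 over T cells and of Tgfbi over all cells, as observed in PBS (dark grey) and EM (dark orange) and recombined as PBS levels with the EM mix (light grey) or EM levels with the PBS mix (light orange). For Lrrc32 the PBS levels with the EM mix (14.0 CPM) come close to the EM value (14.6 CPM), though its CD4 T level differed (2.55 and 17.2 CPM). For Tgfbi the recombined bars (77.0 and 718 CPM) lie outside the observed ones (258 and 143 CPM).

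The share of regulatory T cells with an Itgb8 UMI was 31.1% in PBS and 26.5% in EM at median depths of 3712 and 2104 UMIs. Thinned to 1000 UMIs per cell, which left out 2 PBS and 31 EM cells, it was 11.7% and 13.7%. The thinned share was 0.0714% in PBS monocytes or macrophages, a class at a median of 8910 UMIs that served as background. Lrrc32 was found in 30.3% and 14.4% of regulatory T cells, and in 9.17% and 7.33% after thinning, beside 0 of 1401 thinned PBS monocytes or macrophages. Both genes were found together in 7 of 122 PBS and 28 of 631 EM regulatory T cells. Of Lrrc32-positive cells, 18.9% in PBS and 30.8% in EM held Itgb8, beside 36.5% and 25.7% of Lrrc32-negative cells, so the direction differed between the libraries.

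T cells outside the regulatory gate did not move together. CD4 T cells with no Foxp3 UMI had Itgb8 at 19.4 and 42.0 CPM (1.12, 0.56 to 1.70) and Lrrc32 at 2.55 and 17.2 CPM (2.76, 1.41 to 4.46), both called higher in EM, where 3.75% of all genes were. CD8 T cells had Itgb8 at 3.14 CPM from 52 UMIs and 1.09 CPM from 7 UMIs (-1.53, -2.91 to -0.39), where 1460 of all 12122 genes tested were called lower. These UMIs were too few for a call with at least 100 UMIs. After thinning the CD8 ratio was -2.50, from 14 and 2 UMIs, again too few for a call. The remaining T cells, in none of these subsets, had Itgb8 at 23.8 and 44.6 CPM (0.91, 0.30 to 1.55) and Lrrc32 at 13.4 and 14.1 CPM (0.08, -0.85 to 1.04), neither called. They include cells with Foxp3 and a Cd8a or Cd8b1 UMI, and their Foxp3 stood at 81.0 and 183 CPM. Their Itgb8 ratio ran from 0.08 after thinning to 3.12 with gates on thinned cells, where it was called, as was Lrrc32 at 1.85. Other regulatory T cell markers moved in the CD4 gate too: Il2ra stood at 105 and 388 CPM and Ikzf2 at 190 and 380 CPM, while Ctla4 stood at 1092 and 615 CPM. A Foxp3 transcript is missed more often at lower depth, and the CD4 medians were 3631 and 1943 UMIs. With gates drawn on cells thinned to a like depth the CD4 ratio of Lrrc32 was 0.85 and not called, and that of Itgb8 was 1.00 and called. The CD4 ratio of Lrrc32 was 4.11 with clusters in place of gates and 1.62 with equal weight per cell. Its 5 and 39 UMIs were too few for a call with at least 100 UMIs. The CD4 ratio of Itgb8 was not called after thinning within the original gate (0.78), with equal weight per cell (0.72) or in cells with no marker of another class (0.73). The part of missed Foxp3 transcripts in these ratios was not tested further.

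**Figure D3:**
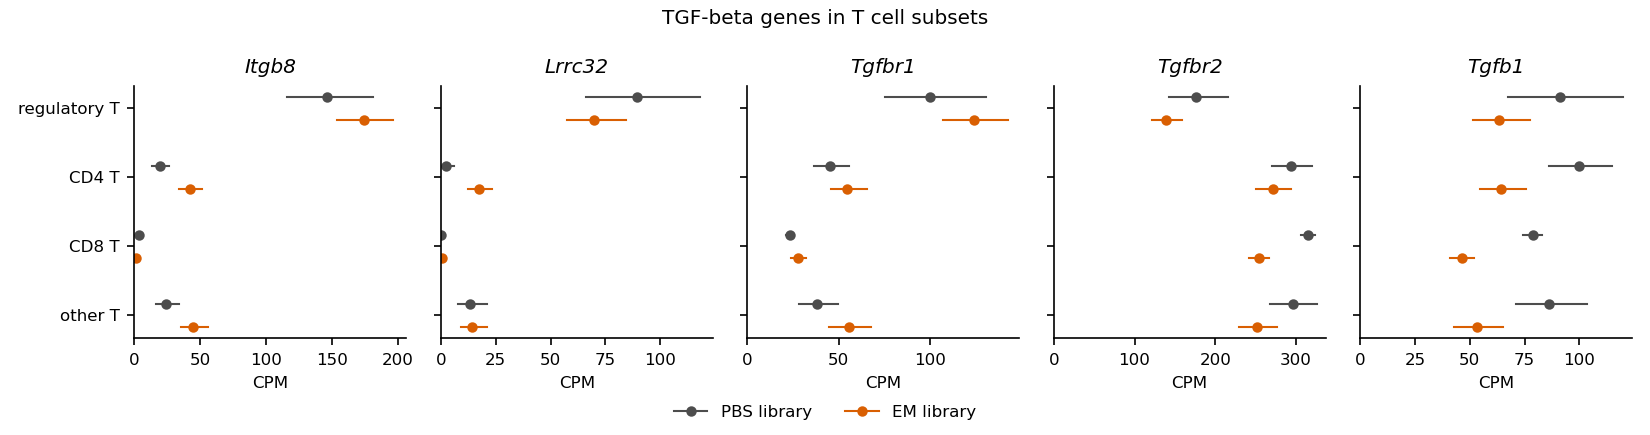
CPM (x axis, linear, own scale per gene) of Itgb8, Lrrc32, Tgfbr1, Tgfbr2 and Tgfb1 in 4 T cell subsets (y axis), with grey points for PBS, orange points for EM and lines for 95% counting intervals. Itgb8, Lrrc32 and Tgfbr1 are highest in regulatory T cells of both libraries, where Tgfbr2 is lowest.

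The receptor genes Tgfbr1 (chromosome 4, 47353222 to 47414931) and Tgfbr2 (chromosome 9, 116084293 to 116175360) encode the type I and type II kinases. Microglia had the highest level of both in both libraries. Tgfbr1 reached 444 CPM in PBS microglia and 469 CPM in EM microglia (0.08, -0.22 to 0.36), above every next class beyond the counting interval. Tgfbr2 was at 415 and 465 CPM (0.16, -0.13 to 0.45). Both intervals held equality, and in PBS the Tgfbr2 level of microglia did not differ from that of B cells, 389 CPM, beyond its counting interval.

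The share of microglia with a Tgfbr1 UMI was 78.1% in PBS and 33.8% in EM, at medians of 7780 and 902 UMIs. Thinned to 1000 UMIs, with 2 PBS and 120 EM cells left out, it was 24.4% and 29.9%. For Tgfbr2 the shares were 89.8% and 35.7%, and 32.6% and 33.3% after thinning. The order of the libraries in the unthinned shares was thus not kept at a like depth. The thinned share of Tgfbr1 in CD8 T cells, the lowest large subset, was 2.34% and 2.48%.

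The stretch just upstream of the start of each receptor gene is shown because the receptors were high together in microglia yet ran opposite ways in T cells. Sequences are from RefSeq on GRCm38.p6, read 5′ to 3′ on the gene's strand, and end before the first annotated exon. Capitals mark matches, on either strand, to the SMAD box CAGAC, the GC box GGGCGG and the core GAGGAA bound by PU.1, a myeloid factor.
Tgfbr1, chr4:47352972-47353221, plus strand: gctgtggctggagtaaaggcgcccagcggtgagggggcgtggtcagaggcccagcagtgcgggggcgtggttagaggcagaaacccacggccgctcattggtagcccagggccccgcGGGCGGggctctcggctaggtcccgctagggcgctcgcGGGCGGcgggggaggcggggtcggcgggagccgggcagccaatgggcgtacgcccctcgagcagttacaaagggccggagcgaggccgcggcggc
Tgfbr2, chr9:116175364-116175613, minus strand: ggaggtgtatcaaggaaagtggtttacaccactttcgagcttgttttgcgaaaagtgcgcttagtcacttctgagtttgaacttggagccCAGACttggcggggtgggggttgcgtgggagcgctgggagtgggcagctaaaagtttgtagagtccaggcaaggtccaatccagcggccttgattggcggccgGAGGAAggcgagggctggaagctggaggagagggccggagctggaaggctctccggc

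Both windows are 250 bases long, at 74.8% G and C for Tgfbr1 and 58.4% for Tgfbr2. The Tgfbr1 window held 2 GC boxes and no SMAD box, and the Tgfbr2 window 1 SMAD box, 1 PU.1 core and no GC box. A SMAD box occurred in 42.2%, a GC box in 32.7% and a PU.1 core in 23.3% of 32851 promoter windows of the same length and position. No match was found to the AP-1 letters TGANTCA or the forkhead letters GTAAACA, which occurred in 6.75% and 3.17% of those windows. A match is a description of letters and says nothing of a factor's binding.

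Within T cells the receptors ran in opposite directions across subsets. Regulatory T cells had more Tgfbr1 than other T cells, 100.2 against 26.5 CPM in PBS (log2 ratio 1.92, 1.49 to 2.32) and 124 against 38.3 CPM in EM (1.69, 1.44 to 1.95). They had less Tgfbr2, 177 against 312 CPM in PBS (-0.82, -1.12 to -0.53) and 139 against 258 CPM in EM (-0.89, -1.09 to -0.69). Each of the 4 intervals excluded equality. These are comparisons between cells of a library, gated on Foxp3, and each library is 1 sample.

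Between libraries the receptors of T cells differed by less than 2-fold. Tgfbr1 over all T cells was at 28.5 and 49.2 CPM (0.79, 0.62 to 0.96), and with PBS levels and the EM mix of subsets it came to 39.5 CPM. Tgfbr2 was at 308 and 242 CPM (-0.35, -0.41 to -0.28). Its level in CD8 T cells was 315 and 254 CPM, and in NK cells 236 and 238 CPM.

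Monocytes or macrophages had Tgfbr1 at 273 CPM and 207 CPM in the PBS and EM libraries (-0.40, -0.61 to -0.19), and Tgfbr2 at 185 and 113 CPM (-0.71, -1.004 to -0.43). The class split by detection of Arg1 or Mrc1, genes of alternatively activated macrophages, a split chosen after their values had been seen. Cells with either gene had Tgfbr1 at 285 and 200 CPM (-0.51, -0.98 to -0.08), and cells with neither had it at 134 and 209 CPM (0.64, 0.30 to 0.98). The 2 parts thus differed in sign, a difference that was not tested. In both clusters with at least 50 cells of the gate from each library Tgfbr1 was higher in EM, at 157 and 227 CPM in cluster 10 and 99.2 and 179 CPM in cluster 11, while cluster 4, at 297 CPM, held 882 of the PBS cells. Tgfbr2 stood at 102 and 64.2 CPM in cluster 10 and at 131 and 176 CPM in cluster 11. Cells with either gene were 1236 of 1473 in PBS and 136 of 539 in EM, and detection depends on depth, with class medians of 8910 and 1120 UMIs.

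Dendritic cells carried the called receptor difference. Tgfbr1 was at 143 CPM from 86 UMIs in PBS and 58.4 CPM from 37 UMIs in EM (-1.29, -1.89 to -0.72), beside 6.78% of all genes called lower. The class held only 65 PBS cells, and with equal weight per cell the ratio was -1.89. With clusters in place of gates it was -3.42, from cluster 21 alone, which held 23 PBS and 122 EM cells, since cluster 13 (106 and 380 cells), whose gated cells were mostly dendritic, could be given no class. Dendritic cells with Ccr7 or Fscn1, genes of the migratory state, had 351 CPM from 14 PBS cells and 55.5 CPM from 68 EM cells, and those with Xcr1 or Clec9a, genes of cross-presenting cells, had 87.7 and 57.7 CPM (-0.60, -1.499 to 0.28). Plasmacytoid dendritic cells, seen in EM only, had Tgfbr1 at 299 CPM and Tgfbr2 at 323 CPM. Both values were below EM microglia and above the next class beyond the counting interval.

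**Figure D4:**
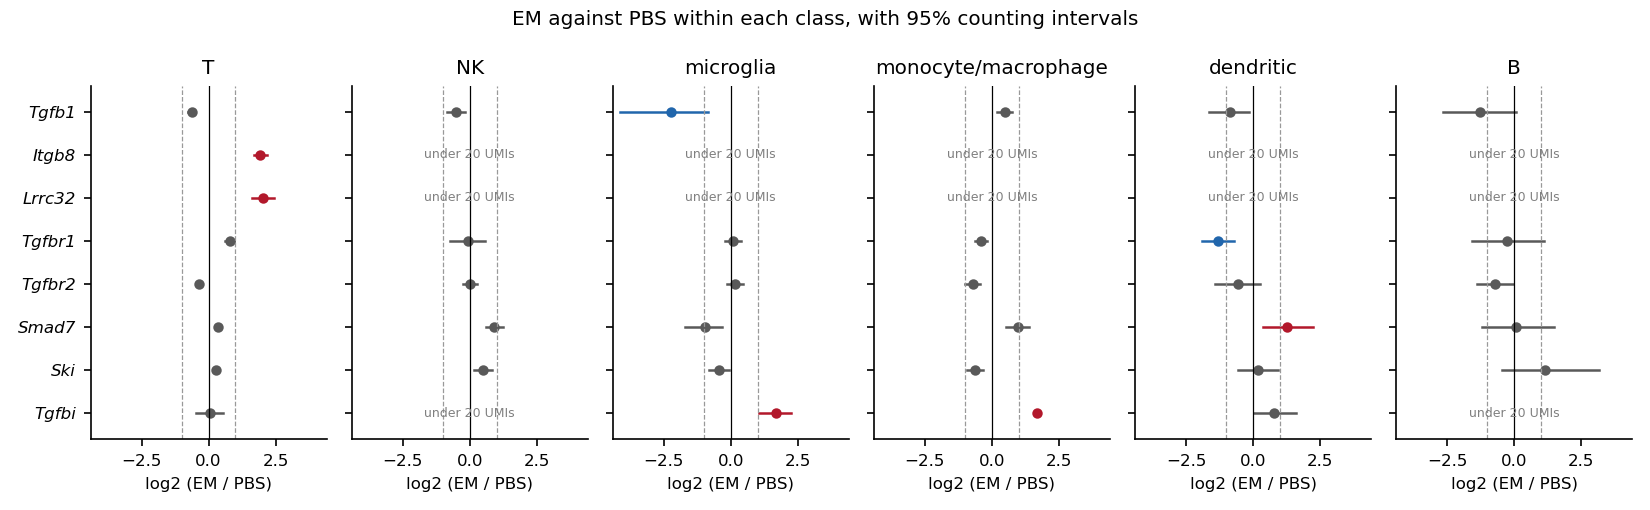
Log2 ratio of EM over PBS (x axis) for each gene (y axis) in 6 classes, with points for the ratio and lines for 95% counting intervals. Red marks genes called higher, blue genes called lower and grey genes not called, and dashed lines mark 2-fold. Itgb8 and Lrrc32 are called in T cells and Tgfbi in both macrophage-lineage classes.

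Smad7 (chromosome 18, 75367529 to 75395935) encodes an inhibitory SMAD that TGF-beta itself induces. T cells had 141 CPM in PBS and 180 CPM in EM (0.35, 0.27 to 0.43), and NK cells 131 and 246 CPM (0.92, 0.59 to 1.25). NK cells of EM ranked first of 8 classes, above T cells beyond the counting interval. In PBS no neighbouring pair among the first 5 classes, from microglia at 156 CPM to neutrophils at 62.4 CPM, differed beyond its counting interval, while neutrophils were above the next class, monocytes or macrophages at 28.2 CPM. The intervals of T cells (136 to 146 CPM) and neutrophils (47.1 to 81.0 CPM), which were not neighbours, did not overlap.

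In monocytes or macrophages Smad7 was at 28.2 and 55.9 CPM (0.99, 0.54 to 1.40), just short of the rule. The ratio ran from -0.02 after thinning to 1.31 with a stricter cell filter, and it was called higher in 7 of 11 alternatives. Microglia had 156 and 79.4 CPM, from 188 and 21 UMIs (-0.98, -1.70 to -0.32). In dendritic cells it was called higher, at 25.0 CPM from 15 UMIs and 60.0 CPM from 38 UMIs (1.26, 0.37 to 2.23), beside 6.11% of all genes. With equal weight per cell the ratio was 0.97 and the call was lost, and with the same 23 PBS cells of cluster 21 in place of the gate it was 2.62.

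Ski (chromosome 4, 155154075 to 155222592) encodes a co-repressor that binds SMAD complexes. Microglia ranked first in both libraries, with 370 CPM for PBS and 272 CPM for EM (-0.44, -0.82 to -0.08), above the next class beyond the counting interval. Dendritic cells (49.99 and 56.9 CPM) and B cells (42.1 and 94.1 CPM) were among the lower classes. No class had a called difference for Ski. Monocytes or macrophages had 167 and 108 CPM (-0.64, -0.94 to -0.35), and T cells 111 and 134 CPM (0.27, 0.18 to 0.37).

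Tgfbi (chromosome 13, 56609523 to 56639562) encodes a secreted matrix protein that is induced by TGF-beta and abundant in monocytes. Monocytes or macrophages ranked first in both libraries, with 688 CPM from 9387 UMIs for PBS and 2193 CPM from 2079 UMIs for EM. The EM level was 3.19-fold higher, a log2 ratio of 1.67 (1.60 to 1.74), in a class where 6.44% of all genes were called higher and 14.5% lower. T cells, which served as background, had 4.50 and 4.66 CPM (0.05, -0.46 to 0.54).

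The upstream stretch of Tgfbi is shown because the gene had the most UMIs behind a called difference. It is from RefSeq on GRCm38.p6, ends before the first annotated exon, and has the same motifs in capitals as the receptor windows.
Tgfbi, chr13:56609336-56609522, plus strand: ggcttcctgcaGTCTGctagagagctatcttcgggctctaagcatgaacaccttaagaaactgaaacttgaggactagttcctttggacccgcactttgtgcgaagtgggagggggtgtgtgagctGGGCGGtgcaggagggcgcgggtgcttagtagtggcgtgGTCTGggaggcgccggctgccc

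This window of 187 bases held 2 SMAD boxes and 1 GC box. Among 32851 promoter windows trimmed to the same length and position, 34.2% held a SMAD box and 22.2% a GC box. None of the AP-1, forkhead and PU.1 letters was found. RefSeq promoter entries were matched for 6 of the 8 genes.

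Tgfbi was higher in EM in both divisions of the gate by Arg1 or Mrc1 and in both clusters with at least 50 of its cells from each library. Cells with Arg1 or Mrc1 had 694 and 2550 CPM (1.88, 1.75 to 2.00), and cells with neither had 628 and 2088 CPM (1.73, 1.60 to 1.87), beside 5.52% and 7.18% of all genes called higher in these divisions. The divisions share no cells with each other, but both come from the same pair of libraries. Cluster 10 had 751 CPM from 363 PBS cells and 2201 CPM from 140 EM cells, and cluster 11 had 669 CPM from 137 and 2851 CPM from 322 cells. Cluster 4, which held 882 of the 1473 PBS cells of the gate, stood at 698 CPM. Different clusters thus held most of the gate in the 2 libraries. Some clusters with under 50 cells of the gate stood lower. In EM, cluster 13 had 963 CPM from 30 cells and cluster 15 had 312 CPM from 44 cells. In PBS, cluster 16 had 329 CPM from 38 cells and cluster 18 had 101 CPM from 36 cells.

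**Figure D5:**
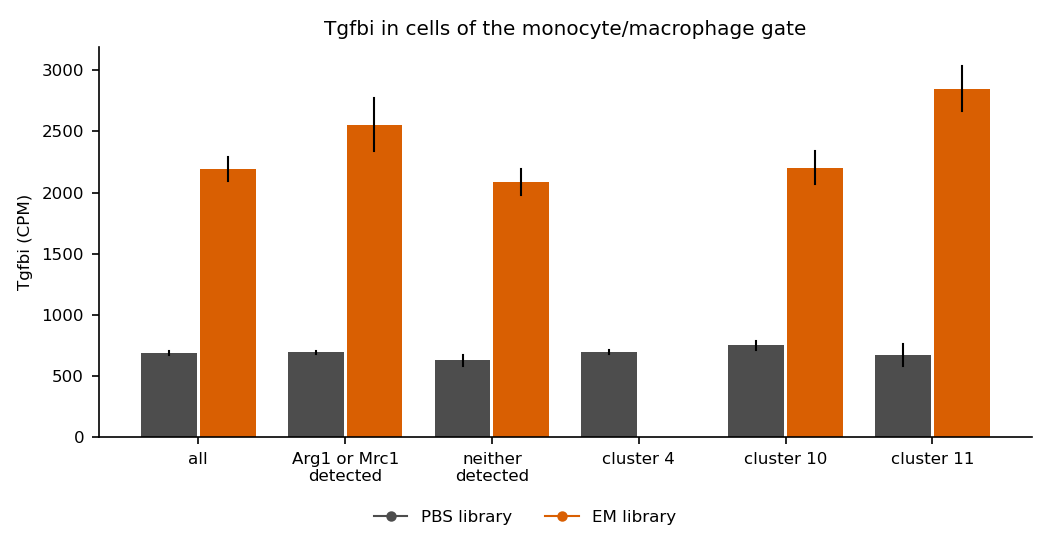
Tgfbi in CPM (y axis, from 0) in the monocyte or macrophage gate, in its cells with and without an Arg1 or Mrc1 UMI, and in clusters with at least 50 cells of a library, with grey bars for PBS, orange bars for EM and black lines for 95% counting intervals. PBS bars lie between 628 and 751 CPM and EM bars between 2088 and 2851 CPM.

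The share of cells in this gate with a Tgfbi UMI was 84.8% in PBS and 78.5% in EM, at medians of 8910 and 1120 UMIs. Thinned to 1000 UMIs, with 72 PBS and 234 EM cells left out, it was 46.0% (43.3 to 48.6) and 73.4% (68.1 to 78.3), beside 0.669% and 0.375% of T cells. The order of the libraries was thus reversed by bringing cells to a like depth. Other genes of the gate moved as well. Ccr2, the receptor for monocyte-attracting chemokine, stood at 162 and 675 CPM, and the monocyte gene Ms4a4c at 73.9 and 1499 CPM, while Arg1 stood at 1106 and 171 CPM and Chil3 at 4048 and 771 CPM. The part of this shift in the Tgfbi difference was not tested.

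Over all cells of a library, by contrast, Tgfbi came to 258 CPM for PBS and 143 CPM for EM (-0.85, -0.91 to -0.79). Monocytes or macrophages held 83.6% of its UMIs in PBS and 75.4% in EM, and were 19.0% and 6.77% of cells. PBS levels with the EM mix of classes gave 77.0 CPM, and EM levels with the PBS mix gave 718 CPM. A sum over cells reads the number of cells of a class and their RNA content together.

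Microglia also had more Tgfbi in EM, 49.9 CPM from 60 UMIs and 159 CPM from 42 UMIs (1.67, 1.06 to 2.26). With clusters in place of gates the ratio was 0.61 and not called. The 10 listed monocyte or macrophage markers summed to 1537 CPM in PBS microglia and 2363 CPM in EM microglia, with Lyz2 at 796 and 1607 CPM, and the 9 microglial markers to 2019 and 5233 CPM. Most of the rise of that sum came from Fcrls (1.66 and 529 CPM), Olfml3 (444 and 1433 CPM) and Sparc (206 and 1633 CPM), while Tmem119 stood at 272 and 299 CPM and Sall1 at 235 and 219 CPM. Cluster 18 held 123 of 137 PBS cells of the gate and cluster 15 held 193 of 207 EM cells. The part of monocyte RNA in this result was not tested. Neutrophils, in PBS only, had Tgfbi at 282 CPM, the second level of that library.

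Medians of the log2 ratio were taken over those of the 8 genes with enough UMIs in a class. These were 8 in T cells, 5 in NK cells, 6 in microglia, 6 in monocytes or macrophages, 6 in dendritic cells and 5 in B cells. Only T cells included Itgb8 and Lrrc32, so the classes are not compared on the same genes. In that order the medians were 0.31, 0.01, -0.18, 0.04, -0.19 and -0.27. The medians of all genes tested were -0.13, -0.09, -0.30, -0.31, -0.03 and -0.10 in the same order. In monocytes or macrophages it was -0.23 with genes at 0 in a library put at 3 UMIs. No gene was called in NK or B cells, where 4.20% and 7.30% of all genes were called higher and 7.10% and 12.6% lower.

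Other genes of the pathway, 47 listed by role, gave more lower than higher calls in the largest classes, as all genes did. In T cells 3 of 41 were called higher and 10 lower, beside 4.80% and 10.4% of all genes. Furin, the protease that cleaves the TGF-beta precursor, rose from 36.2 to 82.7 CPM (1.19), and the integrin chain Itgb3 from 12.5 to 28.1 CPM (1.17). Thbs1, which encodes the TGF-beta activator thrombospondin 1, fell from 12.8 to 0.665 CPM (-4.27). It stood at 513 CPM in PBS monocytes or macrophages, and the part of free RNA in its T cell level was not tested. Ccn2, a target gene, was at 2.15 CPM from 44 UMIs in PBS and at 0 in EM. The counting interval of its log2 ratio reached up to -2.75.

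In monocytes or macrophages 1 of 38 was called higher and 9 lower, beside 6.44% and 14.5% of all genes. Tgif2, a SMAD co-repressor, rose from 1.17 to 5.27 CPM (2.17) on 16 and 5 UMIs. The ligand gene Tgfb3 was at 17.0 CPM in PBS and 0 in EM, with a log2 interval that reached up to -2.12.

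Microglia had 0 of 31 called higher and 9 lower, beside 7.25% and 18.7% of all genes. Ccn2 was among the lower ones, at 41.6 CPM and 0, with a log2 interval that reached up to -1.52. NK cells had 2 of 25 higher, Itgb3 from 27.6 to 75.3 CPM (1.45) and Furin from 27.6 to 55.7 CPM (1.01), and 1 lower, Itgav from 227 to 64.3 CPM (-1.82), beside 4.20% and 7.10% of all genes. In dendritic cells 1 of 25 was higher, Nrros, the tether of latent TGF-beta on myeloid cells (88.3 and 188 CPM, 1.09). Thbs1 (51.7 CPM) and Id1 (33.3 CPM) were lower there, both at 0 in EM, and the shares of all genes called higher and lower were 6.11% and 6.78%. B cells had 2 of 14 higher and 1 lower, beside 7.30% and 12.6% of all genes. The pathway medians were -0.16 in T cells, -0.07 in NK cells, -0.66 in microglia, -0.22 in monocytes or macrophages, -0.06 in dendritic cells and 0.18 in B cells.

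The genes whose patterns were most like those of the 8 were sought over 21 sums of class and library with at least 50 cells, with T cells divided into subsets, among 6832 genes. Pearson's r of log2(CPM + 10) is a description across sums that share libraries and depth. Lrrc32 was most like Ttn (r = 0.967), Ncmap (0.963) and Foxp3 (0.926), the last being a gate gene. Itgb8 was most like Ncmap (0.943), Ttn (0.932) and Izumo1r (0.912), so the activators shared their first 2 genes. Tgfbi was most like Ly6i (0.933), Lrrc25 (0.927) and Lyz2 (0.923), of which Lyz2 is a monocyte or macrophage gate gene.

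The receptors had different nearest genes, Gng12 (0.904), Ctsz (0.886) and Atp13a2 (0.886) for Tgfbr1, and Mindy2 (0.803), Man1a2 (0.782) and Tspan14 (0.779) for Tgfbr2. Tgfb1 was nearest to Cdc40 (0.803), Fosl2 (0.773) and Tmem127 (0.763). Smad7 was nearest to Abca2 (0.855), Scamp3 (0.85) and Eif4g2 (0.844), and Ski to Dusp7 (0.826), Mvb12b (0.826) and Ctsd (0.822).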

How the data were processed

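Single-cell RNA libraries were made from sorted tumour immune cells, 1 per treatment. Values in the deposited matrices are raw counts of UMIs for each gene and barcode, all whole numbers. CASAVA 1.8 and STARsolo with the mm10 genome are named per the submitters' processing notes, while the gene annotation and the calling of cells were not given in the sources used here. Per the labels the sort kept viable cells with CD45.2 and without CD45.1.

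From these counts, cells with at least 500 UMIs, at least 200 genes and at most 20% mitochondrial UMIs were kept (577 PBS and 72 EM barcodes removed). A cell got the class with the highest share of its marker list detected, with at least 2 markers and a second class at no more than a 0.5 share of the first. Microglia and monocytes or macrophages competed as 1 lineage. This scoring rule and the T, dendritic and macrophage sub-gates were set after the data were seen. A cell whose second class passed that share (728 PBS, 864 EM) was left ungated, which was the only treatment of doublets, so gated cells can carry some markers of another class. No doublet caller was run. Of gated cells, 2540 in PBS and 2250 in EM were near the limit of the rule.

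The genes and lists described here were chosen with earlier results of these data known. CPM carry exact Poisson intervals, shares exact Clopper-Pearson intervals and ratios exact conditional binomial intervals, all at 95% and for counting error only. With 1 library per group no test across samples could be made. Named genes were the 8 genes in every class, the 3 nearest genes of each, and per class at most the 2 highest and 2 lowest called of 48 pathway genes, of which 47 are in the files. The values of 1 of these genes are not reported here. Thinning drew 1000 UMIs per cell without replacement. Clusters came from Leiden partitioning (leidenalg 0.10.2, resolution 1.0, 30 components, 15 neighbours) without the 8 genes and the pathway genes, giving 27 clusters. Other tools were Python 3.11.15, numpy 2.4.6, scipy 1.17.1 and scikit-learn 1.9.0. The intervals and calls were tested on simulated counts that held counting error only. Such counts cannot show how the calls hold up to variation between cells, animals or libraries. The promoter motifs were not set in advance: interferon response and kappa B letters were searched too and are not shown, and the PU.1 core was added after the first matches were seen. Gene positions came from the GENCODE annotation of GRCm38 by gene ID. Platelet, endothelial, fibroblast and glial marker sums over all cells were 34.8, 108.9, 11.6 and 92.8 CPM in PBS and 5.13, 82.5, 2.18 and 108 CPM in EM.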

Additional observations from a re-analysis of the deposited data

Results flagged for a closer look

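Itgb8, the beta-8 integrin chain, differed between libraries in opposite directions in 2 T cell subsets. In CD4 T cells with no Foxp3 UMI the EM level against the PBS level gave a log2 ratio of 1.12, and in CD8 T cells it was -1.53. With 1 library per group each direction rests on a single pair of libraries, and the difference between the subsets was not tested. The CD8 T value rests on 52 and 7 UMIs.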

How the results depend on the processing

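No paired analysis was possible because each group has 1 library, and for the same reason no replicate could be left out. Against 5 pairs of gene and class called higher and 2 called lower, a gate of cells with no marker of another class gave 3 higher and 1 lower, and could not be run for microglia, dendritic, B and regulatory T cells. Higher calls came to 9 and lower calls to 8 at 1.5-fold. Lower calls came to 4 with clusters in place of gates, 5 with equal weight per cell, 1 with at least 100 UMIs, and, in alternatives chosen after seeing the data, 4 with gates on thinned cells and 4 with at least 3 markers. With equal weight per cell a call needed only the 2-fold ratio and the UMI minimum, a looser rule without the counting interval. The called ratios of Itgb8 in T cells (1.36 to 2.06), Lrrc32 in T cells (1.73 to 2.64) and Tgfbi in monocytes or macrophages (1.503 to 1.92) remained called under every alternative run. Calls were lost for Tgfbi in microglia with clusters and for Smad7 in dendritic cells with equal weight per cell. After thinning, Tgfb1 in microglia (12 and 3 UMIs) and Smad7 in dendritic cells (0 and 12 UMIs) held too few UMIs for a call. With a minimum of 100 UMIs the same pairs were below the minimum before any ratio was read. No called ratio changed sign. The cause of these changes was not tested. Centring on the median gene shifted T cells by -0.12, microglia by -0.26 and monocytes or macrophages by -0.25 on the log2 scale. Itgb8 and Lrrc32 had under 20 UMIs in each of the other 5 classes compared, too few for a call.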

Other observations

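Cells that passed no gate still carried the 8 genes. They held 12.5% of the Tgfbi UMIs of PBS and 19.2% of those of EM, and 6.56% and 10.96% of the Itgb8 UMIs. Plasma cells, 40 in PBS and 16 in EM, had Tgfb1 at 15.9 and 10.02 CPM, from 5 UMIs and 1 UMI. Basophils or mast cells of EM had Ski at 191 CPM and Tgfbr1 at 131 CPM. In regulatory T cells 1 of 26 pathway genes tested was called higher and 5 lower, beside 4.31% and 5.34% of all genes. The integrin chain Itgb3 was higher, at 21.9 CPM from 12 UMIs and 62.2 CPM from 96 UMIs (1.51). Thbs1 stood at 102 CPM from 56 UMIs in PBS and Ccn2 at 52.8 CPM from 29 UMIs, both at 0 in EM. The counting intervals of their log2 ratios reached up to -5.37 and -4.37. Thbs1 stood at 513 CPM in PBS monocytes or macrophages, and the part of free RNA was not tested.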
